A study of Mus musculus with 8 samples.

Results

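The core circadian clock genes are Arntl, Clock, Per1, Per2, Per3, Cry1, Cry2, Ciart, Dbp and Nr1d1. They were chosen by name, with earlier results of these data known, as 10 of 14729 genes tested on Agilent mouse arrays. All 10 were read, by 11 probes in all. Dbp had 2 probes and each of the others 1. The arrays held RNA of inguinal white adipose tissue (iWAT), a subcutaneous fat depot of the groin, from 4 control mice and 4 Senp2-aKO mice. Controls were Senp2flox/flox, with loxP sites around part of Senp2, which encodes a protease that takes the small protein SUMO off other proteins. Senp2-aKO mice were Senp2flox/flox with Adipoq Cre, a recombinase driven by the adiponectin gene and so active in adipocytes, while the other cells of the tissue keep intact alleles. All 8 mice began a high-fat diet (58 kcal% fat) at 8 weeks of age and ate it for 12 weeks, at 22 to 24 °C in 12 h of light and 12 h of dark. The time of day at which the tissue was taken is not given in the sources used here.

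The clock is a loop of transcription that takes about a day. CLOCK and BMAL1, the product of Arntl, bind DNA as a pair at E-boxes and switch on the Per, Cry, Ciart, Nr1d1 and Dbp genes. The PER, CRY and CIART proteins then inhibit that pair, REV-ERB alpha, the product of Nr1d1, represses Arntl, and DBP activates genes through D-boxes. Arntl transcripts therefore peak at the opposite time of day to those of Dbp and Nr1d1, and in fat tissue this clock is known to time lipolysis and hormone release.

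RefSeq promoter windows (build GRCm38.p6, 250 bases before to 50 after a transcript start) were held for 9 of the 10 genes, all but Per2, as 13 windows. Motifs of the loop and a cyclic AMP element were searched on both strands: the E-box CACGTG, the D-box TTANGTAA, the ROR/REV-ERB element GTAGGTNA and the element TGACGTCA. No match of one overlapped a match of another in these windows. The windows of 4 genes are printed as examples of motifs through which the loop is known to act. These are Ciart and Cry1 for the E-box, Arntl for the ROR/REV-ERB element and Per3 for the D-box. A Per1 window also held an E-box, 166 bases before the start, and is not printed. Capitals mark the matches.
Ciart, chr3:95882179-95882478, minus strand: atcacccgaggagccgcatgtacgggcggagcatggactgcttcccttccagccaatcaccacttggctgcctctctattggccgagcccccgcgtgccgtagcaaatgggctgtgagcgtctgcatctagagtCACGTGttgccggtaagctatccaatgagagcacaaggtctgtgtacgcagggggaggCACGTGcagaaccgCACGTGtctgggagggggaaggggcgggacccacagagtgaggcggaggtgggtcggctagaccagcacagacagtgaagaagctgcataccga
Cry1, chr10:85185005-85185304, minus strand: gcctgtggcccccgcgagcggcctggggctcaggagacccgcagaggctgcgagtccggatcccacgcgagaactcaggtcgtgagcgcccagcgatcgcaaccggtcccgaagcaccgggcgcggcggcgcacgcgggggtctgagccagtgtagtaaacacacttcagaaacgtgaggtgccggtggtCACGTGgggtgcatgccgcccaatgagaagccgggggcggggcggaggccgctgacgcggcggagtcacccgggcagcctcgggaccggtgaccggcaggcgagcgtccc
Arntl, chr7:113207261-113207560, plus strand: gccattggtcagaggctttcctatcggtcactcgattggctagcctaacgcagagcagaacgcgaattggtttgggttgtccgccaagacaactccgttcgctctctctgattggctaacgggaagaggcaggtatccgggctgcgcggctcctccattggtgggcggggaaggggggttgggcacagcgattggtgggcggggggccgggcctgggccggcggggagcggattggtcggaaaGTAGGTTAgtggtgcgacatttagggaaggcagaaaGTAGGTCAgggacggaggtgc
Per3, chr4:151044616-151044915, minus strand: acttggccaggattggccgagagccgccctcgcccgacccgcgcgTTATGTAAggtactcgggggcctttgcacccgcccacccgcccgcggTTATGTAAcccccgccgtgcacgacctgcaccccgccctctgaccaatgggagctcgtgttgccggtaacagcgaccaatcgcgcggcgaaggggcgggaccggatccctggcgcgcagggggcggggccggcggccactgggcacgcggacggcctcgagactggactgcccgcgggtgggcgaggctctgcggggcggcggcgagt
The Ciart window held 3 E-boxes, whose first bases lay 116, 58 and 44 bases before the start. E-boxes were in the windows of 3 of the 9 genes (Ciart, Cry1 and Per1), against 7.15% of all 32851 windows and 8.09% of the 27025 genes in the table. The ROR/REV-ERB element was found in 1 of the 9, Arntl, against 2.49% of genes, and the D-box in 1 of the 9, Per3, against 2.72% of genes. The cyclic AMP element was in 0 of the 9, against 2.03% of genes. These matches describe the letters of the windows only. In the 22 of the other clock genes that the table held, E-boxes were in 4, among them Tef, which encodes a factor of the D-box.

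**Figure D1:**
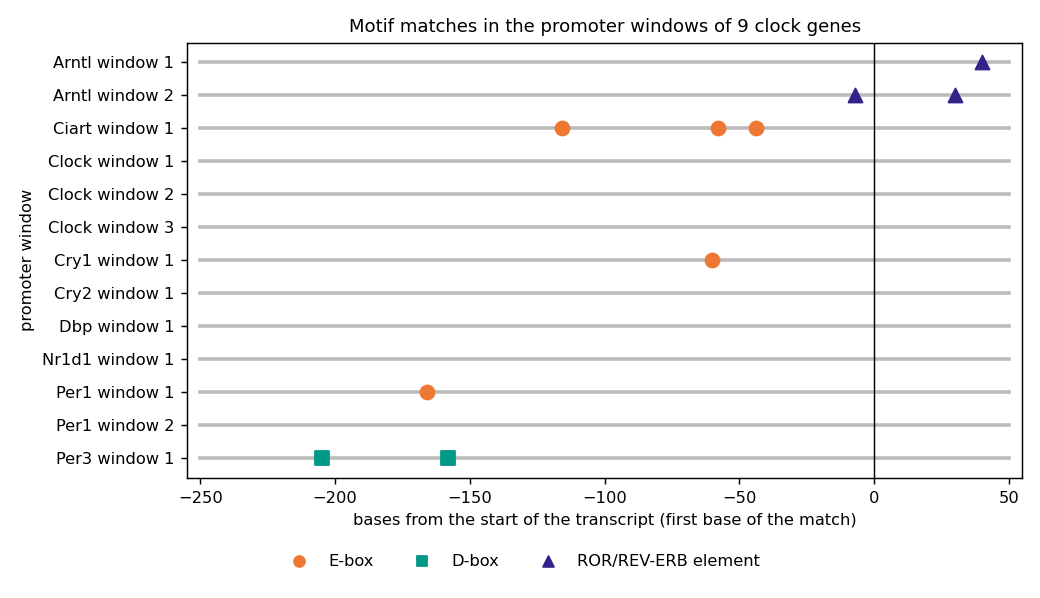
Positions of motif matches in the 13 promoter windows of 9 clock genes. The x axis gives the first base of each match in bases from the transcript start (0 line), each grey line is a window, and the symbols are E-boxes, D-boxes and ROR/REV-ERB elements; Ciart has 3 E-boxes before its start, and the windows of Clock, Cry2, Dbp and Nr1d1 have no match.

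The 8 arrays shared 1 slide, where controls filled a row and Senp2-aKO samples the row beside it, so that the effects of row and group cannot be told apart. Each array was scaled by its 75th percentile of signal, which was 408 to 446 in controls and 324 to 382 in Senp2-aKO arrays. Markers of adipocytes were well above background on all 8 arrays for 8 of 8 genes, with list means of 7.41 to 7.82 (log2 relative to the 75th percentile), the scale of all levels that follow. In this list 0 rose and 1 fell, and log2 fold changes ran from -1.85 to 0.44, with 7 above 0. Of 6 brown and beige markers 6 rose. Skeletal muscle markers rose in 16 of 18, with a list mean of -1.75, -1.79, 1.68 and 0.91 on controls 1 to 4 and 3.42, 4.26, 5.06 and 4.17 on aKO 1 to 4. The B and T lymphocyte means were highest on aKO 2 (2.44 and 2.81), against at most 0.12 and 0.55 elsewhere. Senp2 itself averaged 2.45 ± 0.06 on control and 2.18 ± 0.04 on Senp2-aKO arrays (SD, n = 4 each), and its log2 fold change of -0.27 (SE 0.08) missed the threshold (limma adjusted p = 0.0507), which it passed under 7 of 18 alternatives, among them without aKO 2 (0.0452). In such bulk samples, fewer cells of a type and less RNA per cell cannot be told apart.

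Of the 10 clock genes 2 rose in Senp2-aKO fat, Ciart and Cry2, 0 fell, and 8 did not pass. Among all 14729 genes 7.29% rose and 7.12% fell. The test was limma with Benjamini-Hochberg adjustment over all genes, and a gene passed at an adjusted p under 0.05. At an unadjusted p under 0.05, 4 clock genes were higher and 1 was lower, against 14.7% and 17.6% of all genes. The 4 arrays of each group did not overlap for 4 of the 10 genes, against 26.3% of all genes. The median log2 fold change of the 10 was 0.25, against -0.02 over all genes, and single values ran from -0.74 for Arntl to 1.67 for Ciart. The count of 2 was 0 on leaving out any control or aKO 1, 1 without aKO 4 and 2 without aKO 2 or aKO 3.

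**Figure D2:**
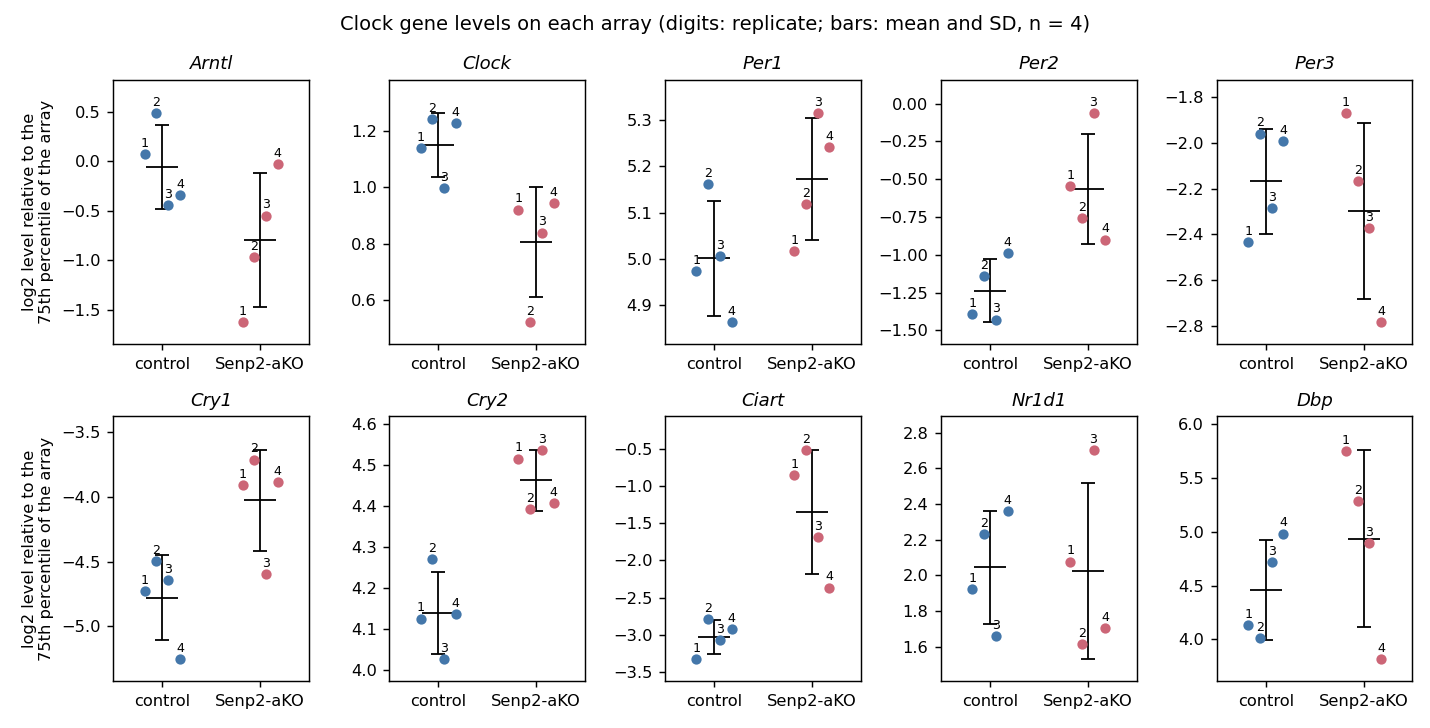
Levels of the 10 clock genes on each array, on the log2 scale relative to the 75th percentile of the array, with the axis set for each gene. Points are arrays, numbered by replicate, and bars are the mean and SD of 4 arrays; for Ciart, Cry2, Per2 and Clock the groups do not overlap.

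Ciart, the repressor also called CHRONO, had the largest difference of the 10. Its level was -3.33, -2.79, -3.07 and -2.92 on controls 1 to 4 and -0.85, -0.51, -1.69 and -2.37 on aKO 1 to 4. Every Senp2-aKO array lay above every control, and the spread was wider in the Senp2-aKO group (SD 0.83 against 0.23). The rise was 3.19-fold (log2 fold change 1.67, SE 0.38, n = 4 each), with a 95% interval of 1.75 to 5.82 and a limma adjusted p of 0.0249. Its signal before scaling was 40.6 to 59.2 in controls and 63.8 to 252 in Senp2-aKO arrays, so the groups did not overlap there either. The call was lost without any control or without aKO 1 (adjusted p from 0.0523 to 0.0745), while the log2 fold change was 1.39 to 2.01 over all 8 omissions. With normexp background correction the log2 fold change was smaller, at 1.03 (95% interval 0.47 to 1.58), and passed (limma adjusted p = 0.0228). The muscle mean separated the groups as well, and with it as a covariate, an alternative chosen after the data were seen, the call ended (1.86, 95% interval -0.16 to 3.88, limma adjusted p = 0.464). Among controls Ciart was -3.33 and -2.79 on the arrays with the lowest muscle means (-1.75 and -1.79), and -3.07 and -2.92 where those were 1.68 and 0.91. On aKO 1 to 4 Ciart was -0.85, -0.51, -1.69 and -2.37 where the muscle means were 3.42, 4.26, 5.06 and 4.17. The muscle covariate and the group nearly coincide, and the part of muscle in the Ciart rise was not tested.

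Cry2, a cryptochrome that holds CLOCK and BMAL1 inactive, was 4.12, 4.27, 4.03 and 4.14 in controls and 4.52, 4.39, 4.54 and 4.41 in Senp2-aKO samples. The groups did not overlap, and the spread within each was small (SD 0.10 and 0.07). The rise was 1.25-fold (log2 fold change 0.32, SE 0.09, n = 4 each), with a 95% interval of 1.09 to 1.44 and a limma adjusted p of 0.0449. The same probe did not pass when all kept probes were tested (limma adjusted p = 0.0675). Before scaling the Cry2 signals of the groups overlapped, at 7112 to 7914 in controls and 6971 to 8865 in Senp2-aKO arrays, so the rise is relative to the lower 75th percentile of the Senp2-aKO arrays. The call ended when arrays were centred on the median of the kept probes (adjusted p = 0.0595), with no filter on background (0.0715), with the replicate number as a block (0.127), with the muscle covariate (0.420) and without any array but aKO 2 (0.0598 to 0.120). Cry1, its paralog, was -4.73, -4.50, -4.64 and -5.25 in controls and -3.91, -3.71, -4.60 and -3.89 in Senp2-aKO samples. The Senp2-aKO arrays lay above all controls, except aKO 3. Cry1 did not pass (log2 fold change 0.75, SE 0.23, limma adjusted p = 0.0628) and was well above background on only 2 control and 3 Senp2-aKO arrays. Without aKO 3, the array at control level, it passed (0.94, adjusted p = 0.0185), as it did with array weights (0.74, adjusted p = 0.0368). It passed with normexp background too, at a smaller log2 fold change of 0.41 (adjusted p = 0.0194).

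The period genes encode the partners of the cryptochromes in the repressing complex. Per2 was -1.39, -1.14, -1.43 and -0.99 in controls and -0.55, -0.75, -0.06 and -0.90 in Senp2-aKO samples. All Senp2-aKO arrays lay above all controls, aKO 4 by little, and the test fell just short (log2 fold change 0.67, SE 0.19, adjusted p = 0.0532 in limma, n = 4 each). It passed when tested only among genes above background on all 8 arrays (adjusted p = 0.0472) and with array weights (0.0381). Per1 was 4.97, 5.16, 5.01 and 4.86 in controls and 5.02, 5.12, 5.32 and 5.24 in Senp2-aKO samples, with groups that overlapped (0.17, 95% interval -0.07 to 0.41; 0.10 with quantile normalisation). Per3 overlapped fully, at -2.43, -1.96, -2.29 and -1.99 in controls and -1.87, -2.17, -2.37 and -2.79 in Senp2-aKO samples (-0.13, 95% interval -0.60 to 0.34). The lowest Per3 level of all was that of aKO 4, and without that array the sign turned (0.032); it turned with normexp background too (0.015).

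Arntl and Clock, the activators, were lower on average and did not pass. Arntl was 0.07, 0.48, -0.44 and -0.34 in controls and -1.63, -0.97, -0.55 and -0.03 in Senp2-aKO samples. The Senp2-aKO arrays lay below all controls, except aKO 4, which lay among them. The mean was 0.60 of control (95% interval 0.34 to 1.05, log2 fold change -0.74, SE 0.35, limma adjusted p = 0.184). Leaving out single arrays or adding a covariate moved it, to -0.46 without aKO 1, -0.99 without aKO 4 and -0.22 with the muscle covariate, and it passed under none of the 18 alternatives tried (limma adjusted p from 0.0934 to 0.939). Clock was 1.14, 1.24, 0.997 and 1.23 in controls and 0.92, 0.52, 0.84 and 0.95 in Senp2-aKO samples. Its groups did not overlap, with aKO 2, the array of high lymphocyte means, lowest (-0.34, SE 0.12, limma adjusted p = 0.0894). Clock passed with a covariate for the B lymphocyte mean, an alternative chosen after the data were seen (-0.32, adjusted p = 0.0243).

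Dbp and Nr1d1 are direct targets of the CLOCK and BMAL1 pair. Dbp, a D-box activator, was 4.13, 4.01, 4.72 and 4.98 in controls and 5.75, 5.28, 4.90 and 3.82 in Senp2-aKO samples. aKO 1 and aKO 2 lay above all controls and aKO 4 below all, so the groups overlapped (log2 fold change 0.48, 95% interval -0.47 to 1.42, limma adjusted p = 0.460). Its value was 0.20 without aKO 1, 0.85 without aKO 4 and 0.28 with array weights. Its second probe gave the same order of arrays within the Senp2-aKO group and 0.43 (SE 0.39, adjusted p = 0.507 over all kept probes). Nr1d1 was 1.92, 2.23, 1.66 and 2.36 in controls and 2.08, 1.62, 2.70 and 1.71 in Senp2-aKO samples. The group means were 2.04 and 2.03, and the interval of the difference ran from -0.62 to 0.58 (log2 fold change -0.02, limma adjusted p = 0.970). It thus does not exclude a change of either sign of about that size.

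**Figure D3:**
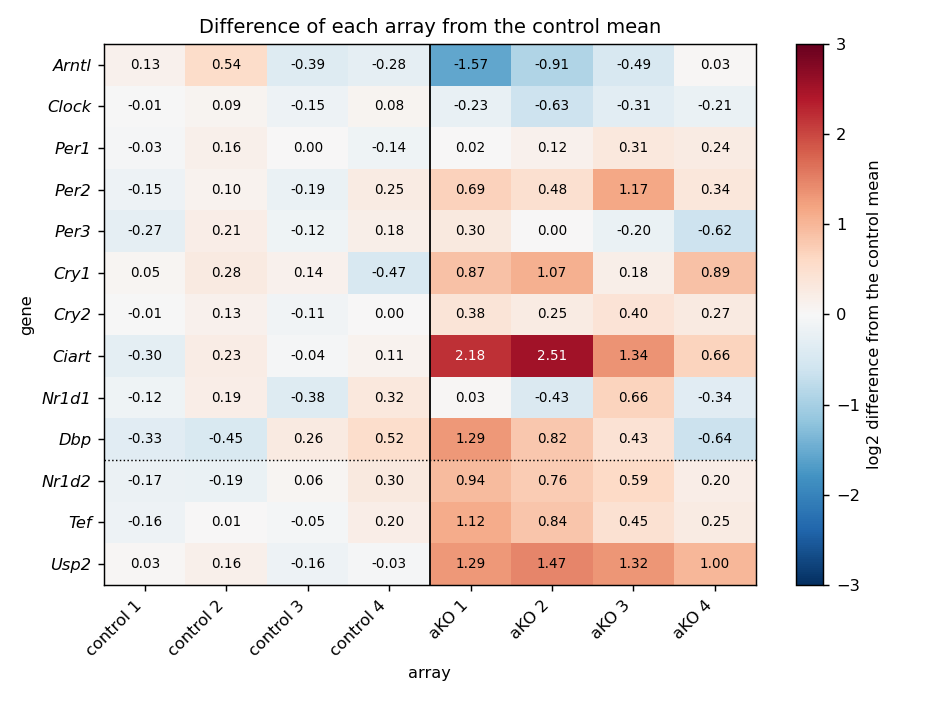
Log2 difference of each array (columns) from the mean of the 4 controls, for the 10 clock genes and, below the dotted line, Nr1d2, Tef and Usp2 of the other clock genes. Ciart is at 0.66 to 2.51 on the Senp2-aKO arrays and Usp2 at 0.998 to 1.47, whereas Arntl runs from -1.57 on aKO 1 to 0.03 on aKO 4.

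The SD of the clock genes within a group was larger in Senp2-aKO samples for 9 of the 10 genes, all but Cry2, against 75.5% of all genes, and the median SD of the 10 was 0.23 among controls and 0.39 among Senp2-aKO arrays, against 0.14 and 0.24 over all genes. Within the Senp2-aKO group, aKO 1 had the highest Dbp, Per3, Nr1d2 and Tef levels and the lowest Arntl level. aKO 4 had the lowest of the first 4 and the highest of Arntl. Among controls, Dbp was highest on controls 4 and 3 and Arntl on controls 2 and 1. After each group mean was subtracted, Arntl and Dbp deviated in opposite directions on all 8 arrays (Pearson r = -0.95 and Spearman rho = -0.90 over 8 arrays, -0.90 among controls and -0.96 among Senp2-aKO samples by Pearson). The other members did not share 1 direction. By Pearson over 8 arrays, Per3 and Ciart correlated with Arntl at -0.65 each, Per2 at -0.08 and Nr1d1 at 0.07. Cry1 stood at 0.05, Cry2 at 0.19, Clock at 0.28 and Per1 at 0.80. For several genes the sign differed between the groups. With Arntl, Per3 was at 0.25 among controls and -0.99 among Senp2-aKO samples, Ciart at 0.26 and -0.84, and Cry2 at 0.89 and -0.38. Signs also differed for Per2, Cry1 and Nr1d1, and were the same for Clock and Per1. Nr1d1 and Dbp correlated at 0.15. Controls 3 and 4, with the higher Dbp, had higher muscle means than controls 1 and 2, while aKO 3, with the highest muscle mean (5.06), was below aKO 1 and aKO 2 in Dbp; the part of muscle in these differences was not tested.

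A different order held for Per2 and Nr1d1, which were both highest on aKO 3 in the Senp2-aKO group and on control 4 among controls (r = 0.97 over the deviations on 8 arrays, rho = 0.90). Per3 and Ciart went together as well (r = 0.85, rho = 0.79). Other pairs of members went opposite ways, such as Per2 and Cry1 (r = -0.80) and Cry1 and Nr1d1 (r = -0.79). Among controls these were -0.60 and -0.50, and among Senp2-aKO samples -0.91 and -0.96. Both pairs include Cry1, which was well above background on only 5 of the 8 arrays. The pairs given here were picked after the values were seen. These values are descriptions over 8 arrays that share their scaling, and carry no test. By the rule of likeness, the genes whose deviations were closest to those of Dbp among 14728 were Nr1d2 (r = 0.99), Clint1 (0.98) and Elmo1 (0.97), and the most opposed were Itprid2 (-0.98), Ddit4 (-0.98) and Slc27a2 (-0.98). For Arntl the closest were Cdkn1a (0.99), Id3 (0.97) and Ddit4 (0.96), and the most opposed Clint1 (-0.97), Tug1 (-0.96) and Dbp (-0.95).

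**Figure D4:**
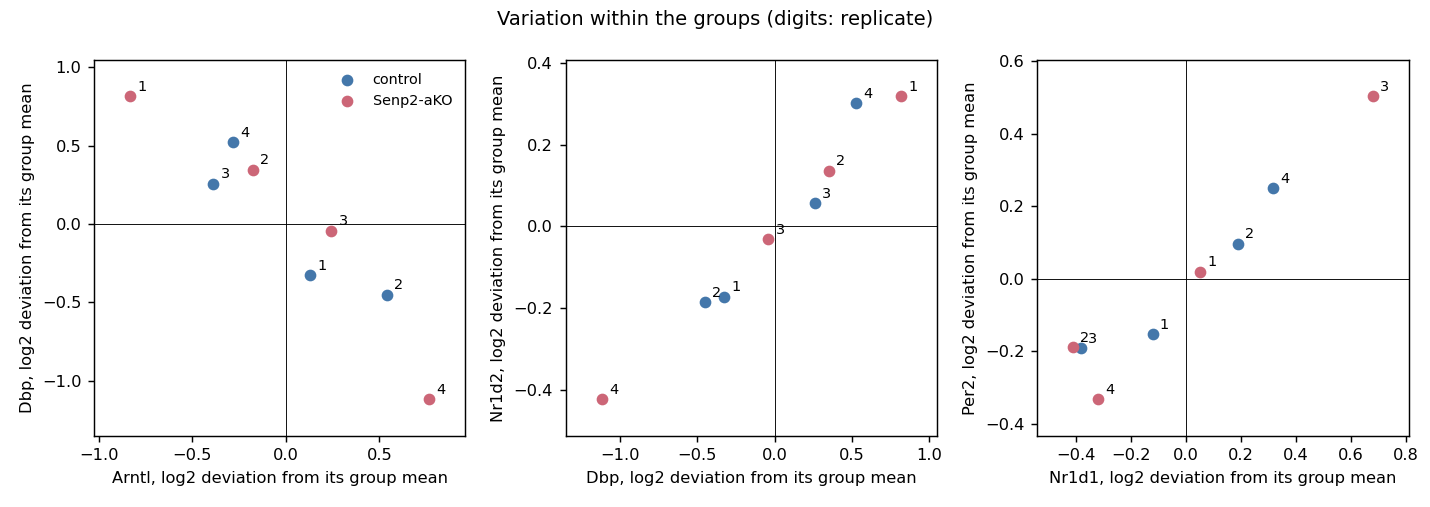
Deviation of each array from its group mean, on the log2 scale, for Dbp against Arntl, Nr1d2 against Dbp and Per2 against Nr1d1. Points are the 8 arrays, numbered by replicate and coloured by group; Dbp falls as Arntl rises, and the other pairs rise together.

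Of 28 other genes of the clock, 25 were measured, 4 rose, 1 fell and 20 did not pass, against 7.29% and 7.12% of all genes. Npas2, Arntl2 and Fbxl21 were above background on too few arrays to be tested. The 15 with a value above 0 and 10 below it had a median log2 fold change of 0.27. Without control 1, 2 rose, and 0 fell in 6 of the 8 omissions, against 1 without aKO 2 and 2 without aKO 3. Of the 4 nuclear receptors that act at ROR/REV-ERB elements, 4 were above 0 and 1 rose. This was Rora, an activator of Arntl, at 1.04, 1.06, 0.68 and 1.07 in controls and 1.43, 1.68, 1.60 and 1.95 in Senp2-aKO samples. It rose 1.63-fold (limma adjusted p = 0.0180, 95% interval 1.30 to 2.04), and all Senp2-aKO arrays lay above all controls; without control 1 the adjusted p was 0.0513. Nr1d2, the paralog of Nr1d1 and likewise a repressor, was 0.26, 0.25, 0.49 and 0.73 in controls and 1.38, 1.19, 1.03 and 0.63 in Senp2-aKO samples. aKO 4 lay below control 4, and the gene did not pass (0.62, SE 0.18, limma adjusted p = 0.0549), though it did without aKO 4 (0.76, adjusted p = 0.0350).

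Usp2, a deubiquitinase that acts on clock proteins, rose 2.41-fold (95% interval 1.98 to 2.94, log2 fold change 1.27, SE 0.12, limma adjusted p = 0.00367). Its level was 0.60, 0.73, 0.41 and 0.54 in controls and 1.86, 2.04, 1.89 and 1.56 in Senp2-aKO samples. The groups lay far apart with little spread, and the call held on leaving out any array (adjusted p from 0.00440 to 0.0192). Of 9 measured kinases and turnover factors, Usp2 rose and Gsk3b fell, against 7.29% and 7.12% of all genes. Gsk3b, a kinase of clock proteins and many others, was 4.19, 4.06, 4.13 and 3.95 in controls and 3.71, 3.39, 3.81 and 3.67 in Senp2-aKO samples (log2 fold change -0.44, SE 0.11, limma adjusted p = 0.0373). Its 3 probes were all lower (-0.74 to -0.44), but none passed when all kept probes were tested (adjusted p from 0.0522 to 0.0866), and the gene passed in only 2 of the 8 omissions, those of aKO 2 and aKO 3. Csnk1d, a kinase that marks PER proteins for breakdown, did not pass (0.27, SE 0.08, adjusted p = 0.0619) except without aKO 2 (0.29, adjusted p = 0.0369) and under 3 other alternatives, while its dimmer probe did over all kept probes (0.39, SE 0.10, adjusted p = 0.0472).

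Among 5 clock-controlled outputs 2 rose and 0 fell, against 7.29% and 7.12% of all genes. At an unadjusted p under 0.05 in limma 1, Lonrf3, was lower, against 17.6% of all genes. Lonrf3 did not pass (log2 fold change -0.72, limma adjusted p = 0.0901), and its dimmer probe was at -1.16. Nampt, which makes the NAD precursor NMN, was 1.98, 2.18, 2.07 and 2.43 in controls and 3.20, 3.14, 2.67 and 2.97 in Senp2-aKO samples. It rose 1.78-fold (limma adjusted p = 0.0132, 95% interval 1.40 to 2.25), and kept its call on leaving out any array (adjusted p up to 0.0468). Tsc22d3, a glucocorticoid-induced gene also called GILZ, was 5.61, 5.68, 5.46 and 5.49 in controls and 6.32, 6.20, 5.82 and 6.11 in Senp2-aKO samples. It rose 1.47-fold (95% interval 1.20 to 1.78, limma adjusted p = 0.0245), with no overlap, and lost the call on leaving out control 1, 3 or 4 or aKO 1 or 4 (adjusted p up to 0.0715). Of the 3 bZIP factors of the D-box 0 passed in limma, with 2 higher at an unadjusted p under 0.05, against 14.7% of all genes. Tef was 5.05, 5.22, 5.16 and 5.41 in controls and 6.33, 6.05, 5.66 and 5.46 in Senp2-aKO samples, without overlap (0.66, SE 0.19, limma adjusted p = 0.0541; 0.80 and 0.0403 without aKO 4). All 4 E-box repressors and PER partners failed to pass, with values from -0.67 to 0.40. The lowest was Bhlhe41, whose dimmer probe was at -0.05. Nono was lower, with groups that did not overlap, as for 26.3% of all genes (-0.20, limma unadjusted p = 0.0322, adjusted p = 0.119).

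**Figure D5:**
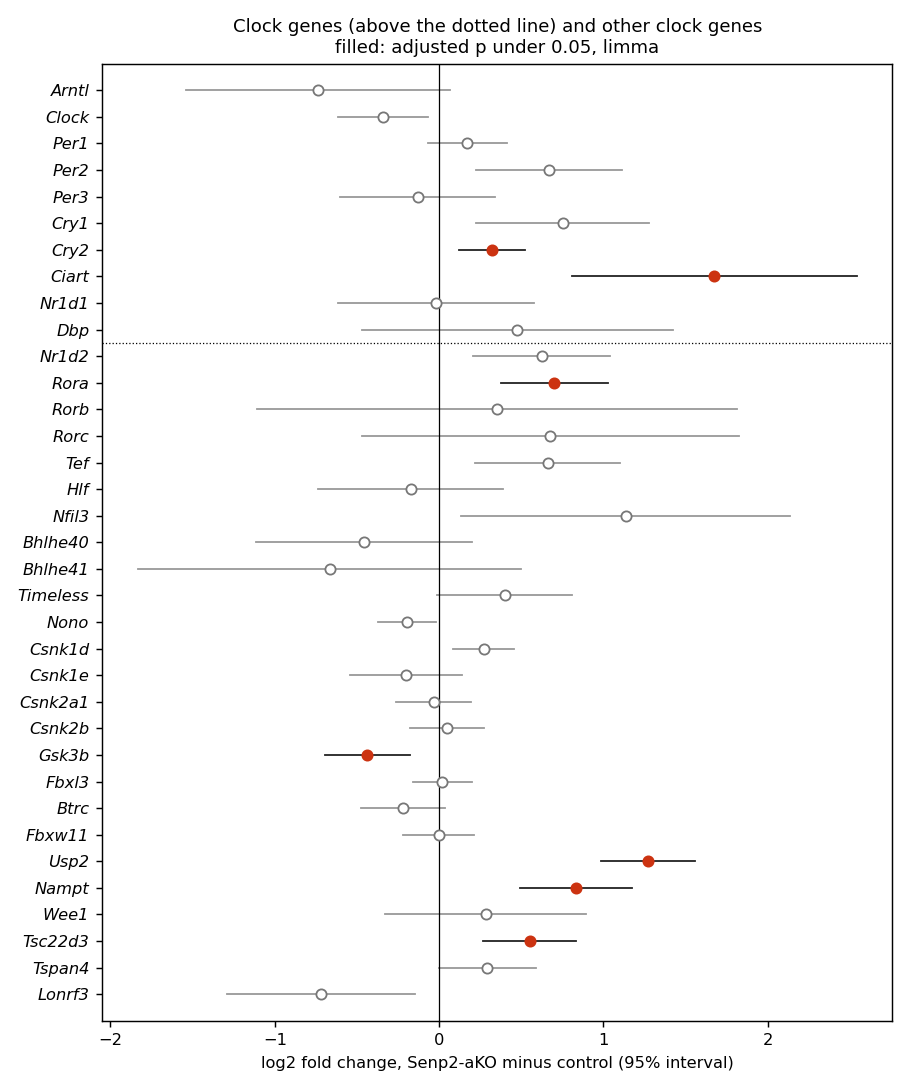
Log2 fold changes, Senp2-aKO minus control, with 95% intervals from limma (n = 4 per group), for the 10 clock genes above the dotted line and the 25 other clock genes below it. Filled points passed at an adjusted p under 0.05; these are Ciart, Cry2, Rora, Usp2, Nampt and Tsc22d3 above 0 and Gsk3b below 0.

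The muscle list mean ranked all Senp2-aKO arrays over all controls. With that mean as a covariate 0 clock genes and 0 other clock genes passed in limma. Further from 0 were Ciart, Cry2 at 0.48 (95% interval 0.02 to 0.94), Cry1 at 1.30 and Usp2 at 1.51. Nearer to 0 were Arntl at -0.22, Clock at -0.18 and Nr1d2 at 0.32, and Dbp turned to -0.20 (95% interval -2.31 to 1.91). Because the covariate and the group nearly coincide, these intervals are wide, and over all genes 1 rose and 0 fell, with 1719 genes at an unadjusted p under 0.05.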

How the data were processed

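RNA labelled with Cy3 (0.5 µg per sample) was hybridised to 1-colour Agilent arrays, 4 per group. The submitters' processing notes and the file headers name Agilent Feature Extraction 11.5.1 as the image software. The deposited processed signal, median signal and local background are intensity values with no scaling between arrays, per the file headers, and the deposited background, saturation and outlier flags hold 0 or 1 for each spot, the unit other. The deposited normalised matrix was not used, since its 8 sample columns match no label. Number of arrays limits the precision.

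From the log2 of the processed signal, the 75th percentile of each array was subtracted, and spots of a probe were averaged without outlier spots. Kept probes were well above background on 4 or more of 8 arrays. RefSeq accessions named 27656 of 55681 probes (names of GRCm38.p6), and the kept probe with the highest mean stood for its gene. The comparison used limma 3.58.1 (R 4.3.3; data.table version 1.17.8). Log2 fold changes give Senp2-aKO relative to control, with their standard error (SE) and 95% intervals. Whether the mice of a group were littermates is not given in the sources used here, and the labels number samples without pairing. The fit was tested on simulated data that gave both groups the spread of the controls, so the wider Senp2-aKO spread was not covered. Members and gene lists were chosen with earlier results of these data known. Named genes were the 10 members, Senp2, other clock genes that passed or had the 3 smallest adjusted p among the rest, and the 3 genes most like and most opposed to Dbp and Arntl; any other gene given with values was named after they were seen. Alternatives were quantile normalisation, normexp background (offset 50) on median signals, median centring, no filter or a filter on all 8 arrays, the mean of a gene's probes, array weights, the replicate number as a block and leaving out each array.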

Additional observations from a re-analysis of the deposited data

Results flagged for a closer look

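The Rora level of control 3 was 0.68, apart from the other 3 controls, of which the nearest was at 1.04. The gap was 0.92 of the whole range of the 4 controls. Among 38 groups of 4 arrays examined (19 genes in 2 groups) this was the 1 that stood apart, and chance alone sets about 1 in 20 such groups apart. Rora rose without control 3 too.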

How the results depend on the processing

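Over all genes, 1074 rose and 1049 fell. The fallen were 689 with no filter on background and 569 with the replicate block, 1933 with array weights (1833 rose) and 1780 with the B lymphocyte covariate. With the muscle mean as a covariate 1 rose and 0 fell (limma, 1719 genes at an unadjusted p under 0.05). Leaving out an array gave 434 to 1356 risen and 280 to 1472 fallen. The 2 risen clock genes were 1 with median centring, with no filter and with the replicate block, 4 with array weights and 0 with the muscle covariate; they were 0 to 2 on leaving out an array. The fallen clock genes stayed at 0, except 1 with the B lymphocyte covariate. Of the other clock genes 4 rose, 0 with the muscle covariate and 2 to 5 on leaving out an array. The 1 that fell was 0 with no filter, with the replicate block and with the muscle covariate, and 0 to 2 on leaving out an array. Signs turned for Nr1d1 without control 2 (0.04), control 4 (0.09), aKO 2 (0.12) or aKO 4 (0.09) and with the B lymphocyte covariate (0.016), for Per3 with normexp background (0.015) and without aKO 4 (0.032), and for Dbp with the muscle covariate (-0.20); the cause was not tested. On leaving out an array Nr1d1 ran from -0.24 to 0.12 and Per3 from -0.27 to 0.032. The replicate numbers share only a number: deviations of same-numbered arrays correlated at -0.08 to 0.14, not every array best with its own number. With the replicate block Cry2 had an adjusted p of 0.127 and Ciart 0.0488 (limma). The alternative on the deposited matrix was not run, since its columns match no label. Both covariates were chosen after seeing the data. Cry1 is limited by signal over background, above it on 5 of 8 arrays.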
